A study of Xenopus laevis with 24 samples.

Results

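The genes described here are 219 of the 44478 genes listed for cultured foregut tissue of the frog Xenopus laevis, chosen because control explants switched them up between an early and a middle stage of culture and because both interventions of the study left them low at the middle stage. Levels are TPM, reads per transcript length scaled to a common library total, and the choice used log2(mean TPM of 3 libraries + 1). A gene entered if controls at Nieuwkoop and Faber stage 33 (NF33) exceeded controls at NF25 by at least 1 log2 unit and were less than 1 log2 unit above controls at NF38. It also had to lie at least 0.8 log2 units under the controls at NF33 in explants with a knockdown directed at Rfx6 and in explants in which retinoic acid signalling was blocked, and less than 0.8 under them in the blocked explants at NF25. The cap of 300 genes on the list was not reached. The members were therefore chosen on measured values of the controls, of the NF33 treatments and of the blocked explants at NF25, and differences between those libraries are given as a description only.

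Rfx6 is a winged-helix transcription factor of the regulatory factor X family, expressed in the gut endoderm and required in mice and humans for the formation of endocrine cells of the pancreas. Retinoic acid, made from vitamin A, binds nuclear receptors on DNA and turns them from repressors into activators of their target genes. In vertebrate embryos it is made in mesoderm near the foregut and helps to set where pancreas and other posterior foregut organs form.

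The tissue was foregut endoderm with its mesoderm, cut from embryos of the NXR_0031 stock at NF15 and cultured at 15 °C. Each library came from a pool of 8 explants, and the labels call the 3 pools of a group biological replicates; p-values measure the spread between pools. There were 8 groups of 3 libraries. Controls at NF25, NF33 and NF38 carried a mismatch morpholino, an antisense oligonucleotide with exchanged bases, and were kept in 0.1% DMSO. The rfx6 morphants at the same 3 stages came from embryos injected at the 2-cell stage with 2.5 ng of a morpholino that blocks translation of Rfx6. The BMS493 explants, at NF25 and NF33, were kept from dissection in BMS493 at 250 nM, a compound that binds retinoic acid receptors and holds them in the repressive state. The labels do not say whether the BMS493 explants also carried the mismatch oligonucleotide or whether the rfx6 morphants were kept in DMSO. The 24 libraries include no BMS493 explants of NF38.

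Libraries held 19433955 to 31005048 counts, and no pair of replicates agreed within sampling noise. Libraries of 1 stage share a batch tag in the labels. Treated and control libraries of a stage therefore carry the same tag, whereas stage and batch cannot be told apart. The files list genes by number (XBXL10_1g followed by a number), and 0 of the numbers matched a RefSeq gene table, so members go by number, have no stated function, and the labelled tissue and the loss of Rfx6 could not be checked against marker genes. A morpholino of this kind blocks translation and need not lower the messenger RNA of its target. Xenopus laevis is allotetraploid, and near-identical gene copies may share reads. In pooled tissue, fewer cells of a type and less RNA per cell cannot be told apart, and this holds for every difference below.

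The choice can be followed in steps. Of 44478 genes, 2388 were at least 1 log2 unit higher in NF33 than in NF25 controls, and 2236 of these had not dropped by 1 log2 unit by NF38. Of those 2236, called rising genes here, 636 were at least 0.8 lower in rfx6 morphants at NF33. In 234 of the 636 the BMS493 explants were at least 0.8 lower too, and 219 remained once genes at least 0.8 lower in BMS493 at NF25 were left out. Adding 1 to the TPM damps such a fall in scarce genes, and 185 of the 219 had an NF25 control mean under 1 TPM. Members can therefore differ in BMS493 at NF25. XBXL10_1g4602 had 71 counts in NF25 controls and 7 in NF25 BMS493 explants, whereas XBXL10_1g19230 had 194 and 821. The members make up 9.79% of the rising genes. For comparison, 402 rising genes were low in rfx6 morphants but not in BMS493, 76 in BMS493 but not in rfx6 morphants, and 1524 in neither.

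The list has no natural edge. The member nearest the rfx6 threshold was XBXL10_1g27094, at -0.80 log2 units in rfx6 morphants and -1.76 in BMS493, and the nearest gene outside it, XBXL10_1g12660, lay at -0.7957 and -1.10. At the BMS493 threshold the member XBXL10_1g1296 lay at -1.39 and -0.80, and the excluded XBXL10_1g19099 at -0.94 and -0.7977. There were 25 members within 0.2 log2 units of the rfx6 threshold, 55 within 0.2 of the BMS493 threshold and 11 within 0.2 of both.

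**Figure D1:**
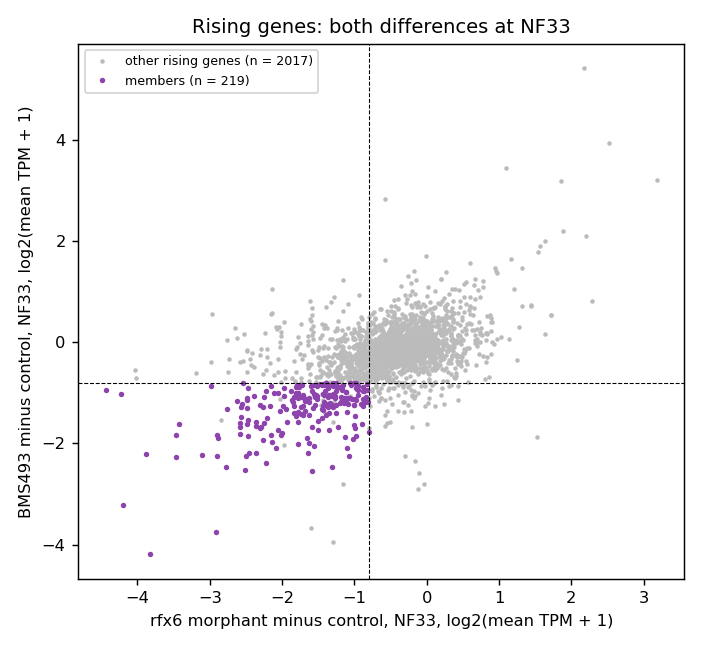
Each point is a rising gene (n = 2236), placed by the difference in log2(mean TPM + 1) from NF33 controls in rfx6 morphants (x) and in BMS493 explants (y); dashed lines mark the thresholds of -0.8 that chose the 219 members (purple). Members reach up to both lines, 25 within 0.2 log2 units of the rfx6 line and 55 within 0.2 of the BMS493 line, and the deepest reach -4.44 in rfx6 morphants and -4.19 in BMS493.

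The members were near silence at NF25. In NF25 controls 185 of 219 had a mean under 1 TPM, 41 were listed at 0 TPM in all 3 libraries, and the median over members of the mean TPM was 0.193. The medians in rfx6 morphants and BMS493 explants of that stage were 0.177 and 0.167. At NF33 the control median was 6.46 TPM, with a range from 1.04 to 1013 TPM. There 89 members lay under 5 TPM and 19 at or above 50 TPM, so the list mixes a few abundant transcripts with many scarce ones.

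Added up over members, the 3 NF33 control libraries held 4939 to 4974 TPM. The rfx6 morphants held 1267 to 1334 TPM and the BMS493 explants 1886 to 1972 TPM, and the 3 ranges do not overlap. XBXL10_1g1162 was the largest item in the control sums. Without it the sums were 3907 to 3972 in controls, 1017 to 1065 in rfx6 morphants and 1495 to 1564 in BMS493.

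Gene by gene, rfx6 morphants at NF33 kept a median of 18.7% of the control TPM and BMS493 explants 29.99%. The median difference in log2(mean TPM + 1) was -1.55 in rfx6 morphants and -1.18 in BMS493. The morphant mean was the lower of both treatments in 165 of 219 members, by at least 1 log2 unit in 27, and the BMS493 mean was lower by that much in 2. Since both groups are compared with the same 3 control libraries and both thresholds are part of the choice, these values describe the list and test nothing.

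Treated explants at NF33 are set here against NF25 controls, across batch tags and in libraries that the choice used, as a description only. On the log2 scale the median member covered 28.1% of the control rise in rfx6 morphants and 41.5% in BMS493. In 25 members the NF33 morphants were at or below NF25 controls, in 16 the BMS493 explants were, and in 6 both were.

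Separation between single libraries was wide for most members. Every rfx6 morphant and every BMS493 library lay below every control library at NF33 in 200 of the 210 members with enough counts to be tested. That is 95.2%, where 8.88% of all 28313 genes tested showed this, 19.8% for the morphants alone and 19.2% for BMS493 alone; since the choice used these libraries, nothing is read from the difference.

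**Figure D2:**
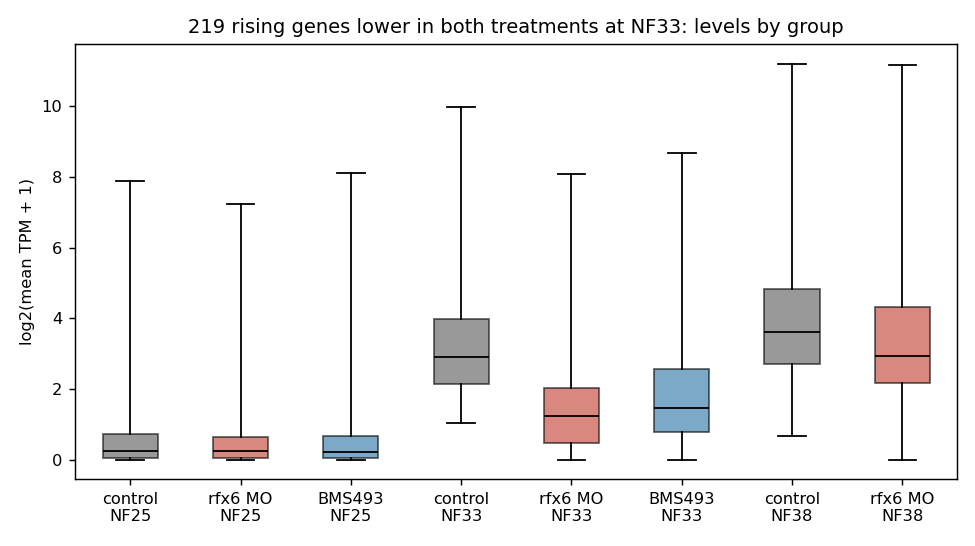
Level of the 219 members in each group as log2(mean TPM + 1): the box spans the quartiles, the line is the median and the whiskers reach the lowest and highest member (grey, controls; red, rfx6 morphants; blue, BMS493). Control medians go from 0.193 TPM at NF25 to 6.46 TPM at NF33 and 11.2 TPM at NF38, while NF33 morphants stand at 1.36 TPM, NF33 BMS493 explants at 1.76 TPM and NF38 morphants at 6.71 TPM.

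The most abundant member was XBXL10_1g1162. Its 3 NF25 control libraries held 0.59, 0.44 and 0 TPM, and its NF33 control libraries 1065, 967 and 1007 TPM. At NF33 the rfx6 morphants held 269, 251 and 263 TPM and the BMS493 explants 424, 391 and 406 TPM. Both treated groups were thus clear of the controls and of each other. At NF38 controls held 2334, 2368 and 2367 TPM and rfx6 morphants 2372, 2261 and 2296 TPM, and here the groups overlapped.

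XBXL10_1g22185, next in abundance, was the exception among the 10 highest in being well expressed from the start. Its NF25 controls held 215, 241 and 253 TPM, its NF33 controls 500, 479 and 472 TPM. At NF33 the rfx6 morphants held 303, 237 and 278 TPM and the BMS493 explants 271, 259 and 289 TPM. At NF33 both treatments overlapped each other and lay near the NF25 control level. The NF25 morphants, however, were below the NF25 controls (log2 fold change -0.57, SE 0.10, adjusted p = 6.805e-05, edgeR). In mean CPM, which are counts scaled for library size, morphants went from 15.8 at NF25 to 28.3 at NF33. Controls went from 23.4 to 52.5 CPM, and BMS493 explants held 29.0 and 29.9 CPM. These stage differences run across batch tags.

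XBXL10_1g569 showed a wide gap between both treatments. NF33 controls held 130, 129 and 139 TPM, rfx6 morphants 5.82, 7.46 and 5.18 TPM, and BMS493 explants 63.7, 64.6 and 66.6 TPM. The morphants were thus more than 1 log2 unit below the BMS493 explants, and no group overlapped another. At NF38 the morphants held 423, 381 and 408 TPM beside 558, 548 and 567 TPM in controls.

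XBXL10_1g30595, by contrast, was nearly as low in one treatment as in the other. It was listed at 0 in all NF25 control and morphant libraries. NF33 controls held 102, 102 and 103 TPM, rfx6 morphants 13.5, 13.4 and 15.3 TPM, and BMS493 explants 19.2, 15.9 and 18.2 TPM. The treated groups still did not overlap.

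The other 6 of the 10 highest, XBXL10_1g19753, XBXL10_1g6525, XBXL10_1g24245, XBXL10_1g40953, XBXL10_1g12058 and XBXL10_1g18967, had NF33 control libraries between 90.2 and 220 TPM. Their morphant libraries lay between 17.6 and 72.5 TPM and their BMS493 libraries between 44.2 and 92.8 TPM. In each of the 6, every morphant library was below every BMS493 library and every BMS493 library below every control library.

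**Figure D3:**
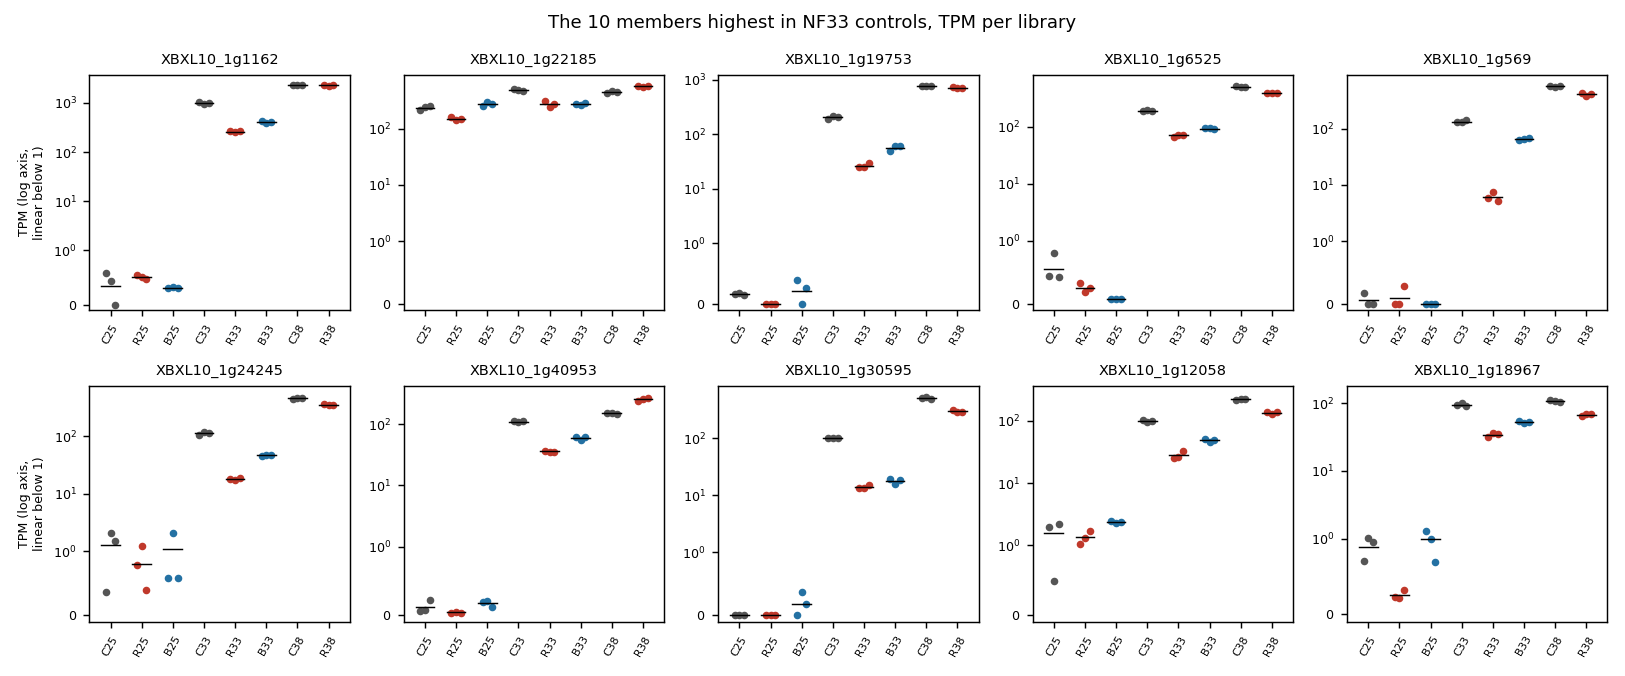
TPM in every library (points) and group mean (line) of the 10 members highest in NF33 controls, on a log axis that is linear below 1 TPM; C, control, R, rfx6 morphant, B, BMS493, followed by the stage. Apart from XBXL10_1g22185, each lies under 3 TPM at NF25 and above 90 TPM in NF33 controls, with both treatments between these levels at NF33; NF38 morphants lie above the NF33 controls in all but XBXL10_1g18967.

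A drop of at least 2 log2 units occurred in 59 members in rfx6 morphants, in 21 in BMS493 and in 14 in both. Of the 6 members with the deepest mean drop, XBXL10_1g6849 was listed at 0 TPM in all 3 NF33 morphant libraries while BMS493 explants held 10.7, 8.46 and 11.8 TPM and controls 20.3, 20.2 and 21.5 TPM. Its count over the morphant libraries was 0, against 383 in controls. With 0 replaced by a floor of 3 counts over the group, it was at least 129-fold lower. In NF38 morphants the same gene reached 890, 838 and 832 TPM, so its silence at NF33 was not lasting.

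XBXL10_1g20797 was silent under the other treatment: 0 counts in the 3 BMS493 libraries against 138 in NF33 controls, at least 45.7-fold lower. Its NF33 controls held 8.43, 12.9 and 15.8 TPM and the morphants 1.81, 0.22 and 0.27 TPM. XBXL10_1g3608 was listed at 0 in all NF25 libraries, held 26.3, 23.5 and 23.6 TPM in NF33 controls, and only 0.50, 0.64 and 0 TPM in morphants and 1.44, 2.03 and 1.77 TPM in BMS493. XBXL10_1g29790 went from 30.2, 31.1 and 30.9 TPM in controls to 1.5, 0.69 and 1.26 TPM in morphants and 5.71, 6.41 and 5.54 TPM in BMS493. XBXL10_1g22084 held 13.5, 11.4 and 14.7 TPM in controls and under 0.4 TPM in each morphant library. In these 4 genes neither treated group overlapped the controls.

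The BMS493 mean was below the morphant mean in 50 members and equal to it in 4, and it was lower by at least 1 log2 unit in 2. XBXL10_1g16319 held 5.24, 4.84 and 4.42 TPM in NF33 controls, 1.38, 1.57 and 2.36 TPM in rfx6 morphants and 0.21, 0.26 and 0.20 TPM in BMS493. XBXL10_1g12496 held 8.28, 7.07 and 7.22 TPM in controls, 2.05, 3.35 and 1.93 TPM in morphants and 0.53, 0.47 and 0.64 TPM in BMS493. These are the 2 genes with that gap, and their treated groups do not overlap.

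Not every member is equally well founded on reads. A filter on low counts removed 9 of the 219, which had 1 to 9 counts over the 3 NF33 control libraries although their mean TPM ran from 1.28 to 24.8. Their effective length, estimated from counts and TPM, was at most 0.0276 of that of the median gene, so that a few reads give a high TPM. One of the 6 deepest drops is of this kind: XBXL10_1g11274 was listed at 51.9, 0 and 0 TPM in NF33 controls on 1 count.

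Among the 210 members tested, the counts were also low in both treatments (mean CPM, which scales counts for library size but not for length, at least 0.8 log2 units under controls) in 200 and not in 10. For those 200 the median CPM left at NF33 was 17.4% in morphants and 30.97% in BMS493. In XBXL10_1g30008 and XBXL10_1g29465 the counts were lower in neither treatment. NF33 control libraries of XBXL10_1g30008 held 0.70, 0.92 and 21.2 TPM but 4.70, 5.98 and 4.97 CPM, so that 1 library decided its TPM. Those of XBXL10_1g29465 held 1.37, 1.27 and 13.4 TPM but 7.64, 6.99 and 8.00 CPM. In XBXL10_1g25335 the TPM of both treatments was low while CPM went from 147, 148 and 143 in controls to 104, 92.6 and 91.1 in BMS493.

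The median member was shorter than the median gene: its estimated effective length was 0.732 of that of the median gene, against 0.815 for all rising genes and 0.836 for those low in rfx6 morphants only. Identifier numbers gave 5 adjacent pairs among members, 10 genes or 4.57% of them. A neighbouring number that is a rising gene was held by 42 members (19.2%), a share close to the 444 of 2236 rising genes (19.9%). Whether adjacent numbers mean adjacent positions is not stated by the files.

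In 3 of the 5 adjacent pairs, XBXL10_1g18787 and XBXL10_1g18788, XBXL10_1g7963 and XBXL10_1g7964, and XBXL10_1g8117 and XBXL10_1g8118, both genes had NF33 means in the same order, with controls highest and morphants lowest. XBXL10_1g18787 held 21.7, 22.6 and 23.9 TPM in NF33 controls, 4.56, 6.85 and 5.87 TPM in morphants and 11.4, 13.0 and 11.3 TPM in BMS493. Its neighbour XBXL10_1g18788, much scarcer, held 1.76, 1.67 and 1.84 TPM in controls, 0.09, 0.62 and 0.26 TPM in morphants and 0.40, 0.56 and 0.76 TPM in BMS493. In the other 2 pairs, XBXL10_1g17242 with XBXL10_1g17243 and XBXL10_1g24245 with XBXL10_1g24246, the order of the treatments differed between the genes: NF33 morphants of XBXL10_1g24246 held 26.3, 27.6 and 26.0 TPM and BMS493 explants only 15.4, 16.1 and 15.6 TPM, whereas XBXL10_1g24245 was lower in morphants. The choice required controls to be highest at NF33, and the morphant mean was the lowest in 165 of 219 members. A shared order is therefore common among members in general. No comparison with other pairs of members was made, so nothing is read from the order in adjacent pairs. Adjacent genes may share reads where they overlap.

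The rfx6 morphants at NF38 played no part in the choice, so whether the members were still low 1 stage later could be tested, on the counts, with edgeR's quasi-likelihood test and Benjamini-Hochberg adjustment over 28313 genes. The choice did use NF38 controls, through the limit on a later fall. Of 210 members tested, 123 (58.6%) were lower in NF38 morphants than in NF38 controls at an adjusted p under 0.05, where 21.7% of all genes tested were lower and 47.1% passed in either direction. A further 30 members (14.3%, against 25.4% of all genes) were higher, and 57 did not pass the test. Limma on log2(TPM + 0.1) called 86 lower and 12 higher, where it called 20.2% and 18.4% of all genes. At a difference of at least 2-fold, 49 members were lower and 5 higher, against 1.92% and 9.01% of all genes. The median log2 fold change over the members tested was -0.48, beside 0.01 over all genes.

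Library by library, every NF38 morphant value was below every NF38 control value on the TPM scale in 134 of 210 members, 63.8% beside 27.6% of all genes tested. The reverse held in 34, 16.2% beside 24%. Summed over members, NF38 controls held 12603 to 12882 TPM and NF38 morphants 10243 to 10373 TPM. Without XBXL10_1g1162 the sums were 10237 to 10514 and 7983 to 8001 TPM. The sums were closer than at NF33, where the choice required a gap, so this narrowing is partly built in.

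The share was close to that among the other rising genes low in rfx6 morphants. Of the 398 tested genes low in rfx6 morphants only, 234 (58.8%) were lower at NF38 and 52 higher, with a median log2 fold change of -0.40. Of the 71 tested genes low in BMS493 only, 17 (23.9%) were lower and 28 (39.4%) higher, with a median of 0.22. Of the 1508 low in neither, 391 (25.9%) were lower and 507 (33.6%) higher, with a median of 0.03. No test between these lists was made.

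**Figure D4:**
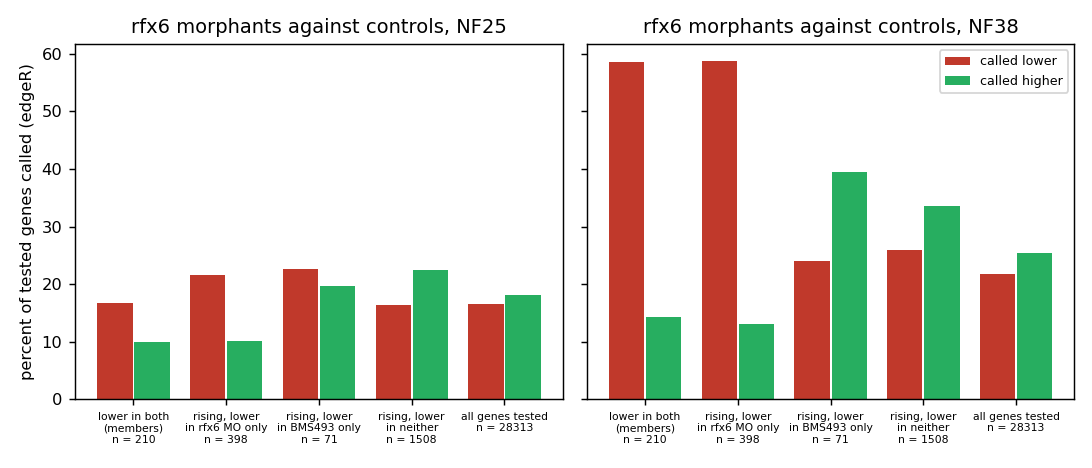
Percent of tested genes called lower (red) or higher (green) in rfx6 morphants than in stage controls at NF25 (left) and NF38 (right), edgeR adjusted p under 0.05, for the members, 3 other lists of rising genes and all genes tested. At NF38 58.6% of members and 58.8% of genes low in rfx6 morphants only are lower, against 21.7% of all genes; at NF25 16.7% of members are lower against 16.6% of all genes.

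Most members were above their own NF33 level by then. The mean TPM of NF38 morphants exceeded that of NF33 morphants in 205 of 219 members and was at least 1 log2 unit higher in 159. It had reached the NF33 control mean in 130 and the NF38 control mean in 49, and lay under 50% of the NF38 control mean in 60. These stage differences run across batch tags and share no test. The median member stood at 65.6% of the NF38 control level, after 18.7% at NF33. The choice required low NF33 morphants and set no limit on NF38 morphants. Both the rise to NF38 and the smaller gap there are therefore partly built in.

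Split into 3 sets of 73 by the rfx6 drop at NF33, the sets with the largest, middle and smallest drop held 45, 41 and 37 genes that were lower at NF38, with median log2 fold changes of -0.53, -0.57 and -0.40; the 9 untested members count in the sets. In controls 76 members were at least 1 log2 unit higher at NF38 than at NF33 on the TPM scale, and 51 of the 75 of them tested were lower in NF38 morphants (68.0%). Of the 135 tested members whose control level changed less, 72 were lower (53.3%). This second split used the NF38 control libraries that are also the reference of the test, which favours lower calls among the 75. The first split used NF33 values that also served the choice. Both describe the list, and nothing is read from the differences between the sets.

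The lasting losses were led by 4 genes. XBXL10_1g18788, of the adjacent pair above, held 2.19, 3.13 and 2.04 TPM in NF38 controls and 0.18, 0.28 and 0.22 TPM in morphants (log2 fold change -3.37, SE 0.36, adjusted p = 6.53e-13, edgeR). Its neighbour XBXL10_1g18787, outside the 4 and named for its place, held 28.1, 27.1 and 26.1 TPM in NF38 controls and 5.22, 6.75 and 6.07 TPM in morphants (log2 fold change -2.12, SE 0.07, adjusted p = 3.21e-32, edgeR). In both genes the NF33 and NF38 morphant libraries overlapped.

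XBXL10_1g23396 was listed at 0 in all NF25 libraries and was far more abundant in NF38 than in NF33 controls, which held 2.8, 3.28 and 3.02 TPM. NF38 controls held 24.6, 25.2 and 22.7 TPM and morphants 3.83, 3.58 and 3.62 TPM (log2 fold change -2.66, SE 0.12, adjusted p = 7.10e-29, edgeR). At NF33 there had been 3 counts in the morphants against 326 in controls, 110 times as many once library sizes are allowed for. The choice required a gap there, so this ratio is a description only. Unlike in the pair above, its morphant libraries were higher at NF38 than at NF33, where none exceeded 0.08 TPM, yet far from the control level.

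XBXL10_1g21338 followed nearly the same course as XBXL10_1g18787. Its NF25 controls held 6.16, 6.29 and 6.60 TPM, its NF38 controls 28.2, 27.2 and 27.7 TPM and its NF38 morphants 4.65, 5.77 and 5.90 TPM (log2 fold change -2.30, SE 0.08, adjusted p = 1.6e-35, edgeR). On the TPM scale the morphant libraries thus lay under every NF25 control library at every stage measured. NF25 morphants held 5.50, 5.67 and 5.51 TPM and NF33 morphants 4.75, 5.56 and 4.27 TPM. The NF25 difference did not pass the test on counts (log2 fold change -0.10, SE 0.10, adjusted p = 0.495, edgeR). Mean CPM was 10.34 in NF25 controls and 10.26 in NF38 morphants. XBXL10_1g11869 held 3.52, 3.64 and 3.65 TPM in NF38 controls and 0.66, 0.58 and 1.04 TPM in morphants (log2 fold change -2.17, SE 0.26, adjusted p = 2.43e-11, edgeR). In each of the 4 genes the NF38 groups do not overlap.

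Among the 49 members at least 2-fold lower at NF38, NF38 morphants were above the NF33 morphant mean TPM in 43 and below the NF33 control mean in 29. Over all 219 members they were above the NF33 morphant mean in 205 and had reached the NF33 control mean in 130. The choice required low NF33 morphants, so the first of these counts is partly built in. Both comparisons run across batch tags.

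The 30 members higher at NF38 had been chosen as low in morphants at NF33 on the TPM scale, and in 29 of them the NF33 counts were low as well. In the remaining XBXL10_1g13366 the NF33 counts were not low in morphants (2.36 CPM beside 1.77 CPM in controls), and its NF33 control libraries held 0.8, 15.3 and 0.78 TPM. XBXL10_1g4067 held 11.6, 6.07 and 8.33 TPM in NF33 controls and 0.48, 1.23 and 0.52 TPM in NF33 morphants. At NF38 its controls held 58.3, 63.5 and 56.4 TPM and its morphants 210, 192 and 211 TPM (log2 fold change 1.84, SE 0.10, adjusted p = 6.43e-26, edgeR). The groups were separate at both stages, in opposite order.

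XBXL10_1g39164 held 46.2, 45.0 and 46.4 TPM in NF33 controls and 13.6, 13.2 and 12.9 TPM in morphants, then 119, 119 and 121 TPM in NF38 controls and 295, 321 and 314 TPM in morphants (log2 fold change 1.42, SE 0.05, adjusted p = 2.09e-40, edgeR). XBXL10_1g38939 went from 17.2 to 18.3 TPM in NF33 controls and 4.88 to 5.91 TPM in morphants to 29.8 to 31.1 TPM and 69.2 to 71.7 TPM at NF38 (log2 fold change 1.27, SE 0.07, adjusted p = 2.60e-27, edgeR). XBXL10_1g26261 held 14.2, 15.6 and 15.0 TPM in NF38 controls and 32.1, 33.8 and 32.9 TPM in morphants (log2 fold change 1.20, SE 0.08, adjusted p = 2.04e-21, edgeR). From NF33 to NF38 all 3 showed the same change of order as XBXL10_1g4067. XBXL10_1g39164 had already been higher in NF25 morphants, on 182 counts against 73 in controls (log2 fold change 1.16, SE 0.17, adjusted p = 6.78e-08, edgeR). It was above controls in NF25 BMS493 explants too, with a mean of 3.27 CPM beside 2.61 in morphants and 1.16 in controls, a difference not tested. Its rfx6 difference did not pass the test for a change from NF25 to NF38 (0.26 log2 units, SE 0.19, adjusted p = 0.351, edgeR).

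Of the 10 most abundant members, 6 were lower in NF38 morphants, 2 higher, and 2 did not pass. Over all genes tested 21.7% were lower and 25.4% higher, shares that are not matched to these 10 for abundance. Abundant members passed more often: 82.0% of those with at least 5 TPM in NF33 controls did, in either direction, against 58.5% of those under 5 TPM. The largest decrease was in XBXL10_1g30595, with 510, 520 and 487 TPM in controls and 311, 288 and 288 TPM in morphants (log2 fold change -0.72, SE 0.06, adjusted p = 2.18e-18, edgeR). XBXL10_1g12058 (-0.67), XBXL10_1g18967 (-0.63), XBXL10_1g569 (-0.41), XBXL10_1g24245 (-0.33) and XBXL10_1g6525 (-0.32) were lower too on the log2 fold change scale. XBXL10_1g40953 was higher, with 152, 152 and 149 TPM in controls and 242, 254 and 263 TPM in morphants (log2 fold change 0.80, SE 0.05, adjusted p = 3.61e-25, edgeR), as was XBXL10_1g22185 (0.37). XBXL10_1g1162 (log2 fold change 0.02, SE 0.04) and XBXL10_1g19753 (-0.06, SE 0.05) did not pass the test, though XBXL10_1g19753 did without the filter on low counts (adjusted p = 0.0329, edgeR). Limma on log2(TPM + 0.1) lost the calls of XBXL10_1g569 (adjusted p = 0.374), XBXL10_1g24245 (0.560), XBXL10_1g30595 (0.0575) and XBXL10_1g12058 (0.0793), and limma on log2(TPM + 1) that of XBXL10_1g24245 as well (0.243).

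Of the members with the deepest NF33 drops, XBXL10_1g3608 did not pass the test at NF38, with 195, 210 and 205 TPM in controls and 232, 197 and 212 TPM in morphants (log2 fold change 0.13, SE 0.07); without rfx6 NF38 replicate 2 it was higher (adjusted p = 0.0379, edgeR). XBXL10_1g20797 was still lower, at 65.1, 66.5 and 67.8 TPM in controls and 21.0, 17.0 and 19.8 TPM in morphants (log2 fold change -1.76, SE 0.19, adjusted p = 2.59e-12, edgeR). XBXL10_1g29790 (-1.33), XBXL10_1g22084 (-1.16) and XBXL10_1g6849 (-0.75; lost in limma on log2(TPM + 0.1), adjusted p = 0.245) were lower as well on the log2 fold change scale. XBXL10_1g16319 (log2 fold change -0.09, SE 0.25) and XBXL10_1g12496 (0.30, SE 0.17), the members lowest in BMS493 relative to morphants, did not pass.

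At NF25, a stage at which most members were barely transcribed, the morphant libraries likewise played no part in the choice, but the NF25 controls did as the low arm of the rise. Of 210 members tested, 35 (16.7%) were lower in NF25 morphants than in NF25 controls and 21 (10%) higher by the same edgeR test, and 154 did not pass. Over all genes tested 16.6% were lower and 18.0% higher, 34.6% in all, so the share of members lower was near the background under this scaling. Scaling by total library size turned the balance over all genes, to 25.3% lower and 11.9% higher, and limma on log2(TPM + 0.1) gave 20.4% and 11.0%; the members then stood at 39 lower and 20 higher, and at 41 and 20. With only the groups compared in the fit, 19 members were lower and 15 higher. That fit tested 23841 genes in place of 28313, and called 4529 of them lower and 4880 higher. How many of the 210 members were among them is not given here, so 19 and 35 may not share a denominator. At least 2-fold differences were found in 25 of the 210 members lower and 13 higher, against 2.68% and 4.34% of all genes. Those shares of all genes are not matched to the members for depth, so nothing is read from the difference.

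Depth limited this comparison. Fewer than 30 counts over the 6 libraries were available for 106 of the 210 members, 25 had 0 counts in both groups and 21 had 0 in 1 of them. Among the 104 with 30 counts or more, 29 were lower (27.9%) and 19 higher (18.3%), where 18.1% and 19.5% of all genes with 30 counts or more were. The median log2 fold change over the 164 members with counts in both groups was -0.15.

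Among called members with counts in both groups, those with the largest increases were as follows. XBXL10_1g40728 held 0.12, 0.07 and 0 TPM in NF25 controls and 1.44, 1.82 and 2.51 TPM in NF25 morphants (log2 fold change 4.98, SE 0.38, adjusted p = 9.77e-19, edgeR) on 6 and 221 counts. NF25 BMS493 explants held only 0.30, 0.10 and 0.20 TPM. At NF33 the order was reversed, with 5.87, 5.52 and 6.02 TPM in controls and 2.22, 2.50 and 3.39 TPM in morphants, and at NF38 it reversed again, with 3.16, 3.06 and 3.21 TPM and 4.56, 5.05 and 5.03 TPM (log2 fold change 0.68, SE 0.14, adjusted p = 1.97e-05, edgeR; adjusted p = 0.0634 in limma on log2(TPM + 0.1)). Morphant levels of this gene thus changed less over the stages than control levels.

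XBXL10_1g30280 held 0.42, 0.65 and 0.37 TPM in NF25 controls and 3.32, 3.40 and 3.33 TPM in morphants (log2 fold change 2.93, SE 0.28, adjusted p = 2.91e-14, edgeR). At NF33 its morphants had gone to 0.34, 0.59 and 0.92 TPM while controls held 6.54, 7.62 and 6.14 TPM. At NF38 the morphants, at 4.65, 4.93 and 4.74 TPM, were lower than controls at 20.5, 21.6 and 21.4 TPM (log2 fold change -2.10, SE 0.13, adjusted p = 6.78e-24, edgeR). XBXL10_1g32562 took the same course, with 10 counts in NF25 controls and 77 in morphants (log2 fold change 2.75, SE 0.44, adjusted p = 4.98e-07, edgeR) and an NF38 log2 fold change of -1.77 (SE 0.16, adjusted p = 3.96e-15, edgeR). XBXL10_1g6876 had 1 count in NF25 controls and 35 in morphants, 31.5 times as many once library sizes are allowed for (counting interval 5.29 to 1279).

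Of the 35 members lower at NF25, 29 had 30 counts or more, but the 4 with the most negative fold changes rest on very few reads. XBXL10_1g40535 had 11 counts in NF25 controls and 0 in morphants, at least 4.08-fold lower with a floor of 3 counts over the group. XBXL10_1g39260 had 9 and 1 counts, a ratio of 10.01 (counting interval 1.39 to 439), and XBXL10_1g7963 had 10 and 2, a ratio of 5.56 (1.19 to 52.2). XBXL10_1g25018 had 20 and 4 counts (log2 fold change -2.38, SE 0.70, adjusted p = 0.00472, edgeR). The intervals cover counting error only. Leaving out control NF25 replicate 1 ended the calls of XBXL10_1g39260 (adjusted p = 0.0705), XBXL10_1g25018 (adjusted p = 0.127) and XBXL10_1g7963 (adjusted p = 0.161); for XBXL10_1g39260 leaving out rfx6 NF25 replicate 1 (0.0710) or 2 (0.0766) did so too, and for XBXL10_1g7963 rfx6 NF25 replicate 1 (0.129) or 3 (0.157), as adjusted p in edgeR. Limma on log2(TPM + 1) did not call XBXL10_1g40535 (adjusted p = 0.122) or XBXL10_1g39260 (0.235), and DESeq2 did not call XBXL10_1g7963 (0.0788).

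**Figure D5:**
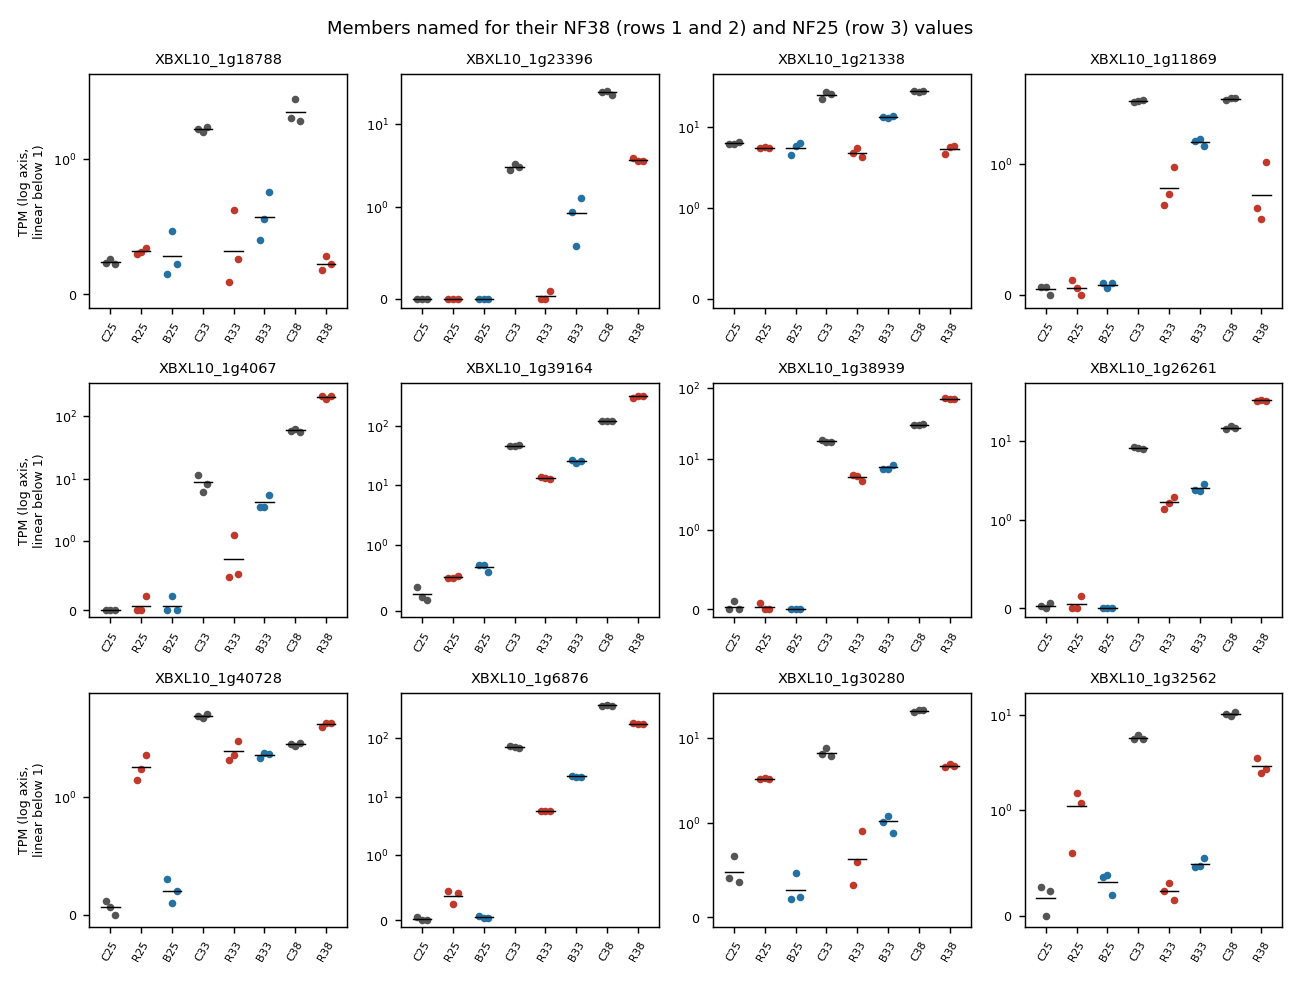
TPM in every library (points) and group mean (line) of members with the largest called differences between rfx6 morphants and controls: lower at NF38 (top row), higher at NF38 (middle row) and higher at NF25 (bottom row), on a log axis that is linear below 1 TPM; C, control, R, rfx6 morphant, B, BMS493, followed by the stage. In the top row NF38 morphants stay far under controls (0.18 to 0.28 TPM against 2.04 to 3.13 TPM in XBXL10_1g18788), in the middle row they overtake them (192 to 211 TPM against 56.4 to 63.5 TPM in XBXL10_1g4067), and in the bottom row they exceed them at NF25 and drop below them at NF33.

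Across both tested stages, 26 of 210 members were lower in morphants at NF25 and at NF38 (12.4%, against 7.43% of all genes tested). A further 85 passed only at NF38 and were lower there (40.5%, against 11.9%), and 12 were higher at NF25 and lower at NF38 (5.71%, against 2.39%). There were 3 higher at both stages (1.43%, against 9.19%) and 4 that were lower at NF25 and higher at NF38 (1.9%, against 2.15%). The change of the rfx6 difference between the stages was tested as an interaction in the same edgeR model. It was more negative at NF38 in 39 of 210 members and more positive in 27, together 31.4% where 32.8% of all genes tested passed (14.1% and 18.7% by direction). Changes of at least 2-fold were found in 35 of the 210 members in the negative and 16 in the positive direction, against 3.81% and 6.96% of all genes. These shares too are not matched for depth at NF25. Limma on log2(TPM + 1) called 87 negative and 19 positive changes among members, where it called 12.9% and 17.6% of all genes. The balance over all genes was not stable: 3987 negative and 5308 positive here, 2868 and 6220 with total library scaling, 4823 and 4513 with DESeq2, 4965 and 4157 without control NF25 replicate 2, and 5057 to 5144 and 4126 to 4305 without 1 of the rfx6 NF25 replicates. Without rfx6 NF25 replicate 3, 17 members had a positive change in place of 27. A call at 1 stage and none at the other is not by itself a tested difference. Stage and batch tag cannot be told apart in this comparison.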

How the data were processed

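RNA from 24 libraries (8 groups of 3) was sequenced; per the labels' protocols the library kit keeps the strand of mRNA. The authors deposited estimated counts and TPM per gene; RSEM 1.3.0 and Bowtie2 are named in the submitters' processing notes. Genome build, annotation and strand setting: not given in the sources used here. Estimated counts are whole numbers in the deposited table, and a row without a gene identifier (0% of counts) was left out. The 44478 identifiers were compared with the 44456 genes of a RefSeq table (Xenopus_laevis_v10.1) and 0 matched, so planned lists of endocrine, gut, retinoic acid response and other cell type genes were not run and no sequence is shown.

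The members were found on the deposited TPM with a pseudocount of 1. Tests used the counts: edgeR 4.0.16 in R 4.3.3, filterByExpr (minimum count 10, minimum total 15; 28313 genes, 210 members), TMM scaling, 1 mean per group, glmQLFit with robust estimates, and Benjamini-Hochberg adjustment, called under 0.05. The code was tested on simulated data. CPM are on the TMM scale. Relative effective length is count over TPM, scaled to the median gene. Intervals of count ratios and the floor of 3 counts cover counting error only; depth per library was 19433955 to 31005048 counts.

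The members and lists were chosen with earlier results of these data known. Genes were named by rule: the 10 highest in NF33 controls; the 6 with the deepest mean drop; the 4 called genes with the most negative and the 4 with the most positive log2 fold change at NF38 and at NF25; 2 each way for the change between stages and for BMS493 minus morphant; and those nearest the thresholds. Genes named for adjacent numbers, for counts that differ from TPM, and the splits of members by drop or later control course were chosen after their values were seen. Alternatives were RLE and total library scaling, another TMM reference library, no filter, DESeq2 1.42.0, limma 3.58.1 on log2(TPM + 1) and log2(TPM + 0.1), the compared groups alone, a replicate block, each replicate left out, and other thresholds.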

Additional observations from a re-analysis of the deposited data

Results flagged for a closer look

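The change of the rfx6 difference from NF25 to NF38 passed the edgeR interaction test in 66 of 210 members tested, 31.4% beside 32.8% of all genes, a share near the background. XBXL10_1g6876 had the most negative change, -5.61 log2 units (SE 0.63, adjusted p = 1.33e-11, edgeR): 1 count in NF25 controls against 35 in morphants, then 364, 377 and 362 TPM in NF38 controls against 182, 175 and 176 TPM in morphants. XBXL10_1g30280 changed by -5.03 log2 units (SE 0.30, adjusted p = 3.87e-24, edgeR), being higher in morphants at NF25 and lower at NF38. XBXL10_1g40535 had a fitted change of 3.90 log2 units (adjusted p = 0.0359, edgeR), which depends on the prior count because NF25 morphants had 0 counts; its NF38 morphants held 0.89, 1.25 and 0.81 TPM against 2.53, 2.98 and 2.18 TPM in controls, and the call was lost without control NF25 replicate 3 (adjusted p = 0.141), any 1 of the rfx6 NF25 replicates (0.0862 to 0.0972) or rfx6 NF38 replicate 2 (0.0519) and in DESeq2 (0.0546), while limma on log2(TPM + 1) gave the opposite direction (-0.64, adjusted p = 0.00152). XBXL10_1g20000 changed by 2.68 log2 units (SE 0.89, adjusted p = 0.0210, edgeR), from 19 counts in NF25 controls and 5 in morphants to 15.7, 16.5 and 16.2 TPM in NF38 controls and 24.4, 24.6 and 25.4 TPM in morphants; leaving out control NF25 replicate 2 (adjusted p = 0.172) or 3 (0.0812), or rfx6 NF25 replicate 2 (0.0771) or 3 (0.0795), ended this call. Stage and batch tag cannot be told apart in these tests.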

How the results depend on the processing

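The list itself depended on the rule's settings: 215 to 226 genes passed with 1 library left out, 300 (the cap; 181 shared, 82.6% of the 219 and 60.3% of the 300) with a pseudocount of 0.1, 153 (150 shared) with drops of at least 1 log2 unit, 300 (204 shared) with drops of at least 0.6, and 253 (174 shared) on CPM. Leaving out 1 NF33 control library kept only 196 to 202 of the 219, and leaving out 1 library of another group kept 206 to 219. With 1 library left out, 117 to 120 members were lower and 26 to 28 higher at NF38, 28 to 33 lower and 19 to 22 higher at NF25, and the stage change was negative in 36 to 43 and positive in 17 to 26, the 17 (main count 27) without rfx6 NF25 replicate 3. The compared groups alone gave 19 lower at NF25 in place of 35, in a fit that tested 23841 genes in place of 28313. How many members that fit tested is not given here, so 19 and 35 may not be over the same members. Limma on log2(TPM + 0.1) called 12 higher at NF38 in place of 30. In limma on log2(TPM + 1), 87 stage changes were negative, not 39. The cause of these differences was not tested. That limma fit reversed the stage change of XBXL10_1g18967 (-0.087), XBXL10_1g4067 (1.68), XBXL10_1g40535 (-0.64), XBXL10_1g39260 (-0.34), XBXL10_1g25018 (-0.12) and XBXL10_1g7963 (-0.31), and limma on log2(TPM + 0.1) that of XBXL10_1g40535 (-0.051), log2 units throughout. Whether the pseudocount accounts for these reversals was not tested. Of 108 values of named genes, 67 kept direction and call under every alternative. In an alternative chosen after seeing the data, the 200 members whose counts were also low gave 120 lower and 29 higher at NF38, and 32 lower and 18 higher at NF25. Over all genes the main fit gave 21.7% lower and 25.4% higher at NF38, and 16.6% and 18.0% at NF25. Replicate numbers did not pair the libraries (correlations of same-numbered deviations -0.068 to 0.0218), and a replicate block gave 122 lower and 30 higher at NF38, 36 and 21 at NF25, and 39 and 27 stage changes. Over all genes the block gave 21.5% and 25.3% at NF38, 16.5% and 17.9% at NF25, and 13.9% and 18.6% for stage changes. Total library scaling moved the median stage change of all genes from 0.04 to 0.12. Depth limits the NF25 values.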
